A study of Homo sapiens with 9 samples.

Results

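The cytosolic ribosomal proteins are the protein components of the ribosomes that translate nuclear genes. Protein-coding genes were taken whose symbol is RPL or RPS followed by digits and at most one of A, X or L, together with RPSA, RPLP0, RPLP1 and RPLP2, and pseudogenes and the RPS6K kinases were left out. This rule found 81 genes among the 60664 in the count files, 49 of the large (60S) subunit and 32 of the small (40S) subunit. The RNA came from MDA-MB-231 cells, an established human breast cancer cell line, in 3 groups of 3 samples, all collected on day 6. SC-0.77cP were scramble control (SC) cells in medium of 0.77 cP, SC-8cP were SC cells in medium of 8 cP, and shTRPV4-8cP were cells in the same 8 cP medium with an shRNA that targets TRPV4, a calcium channel of the plasma membrane. All 3 groups carried a lentiviral hairpin vector, either scramble or against TRPV4, under puromycin selection, and methylcellulose was the agent that raised the viscosity. The knockdown group is 1 stable line with 1 hairpin, and no shTRPV4 sample in 0.77 cP medium is analysed here, so the comparison of shTRPV4-8cP against SC-0.77cP combines viscosity and hairpin, which cannot be told apart in it. What a replicate number stands for is not given in the sources used here, so the p-values measure the spread between these samples, which may be technical.

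Each ribosome holds 1 copy of nearly every ribosomal protein beside its ribosomal RNA, and surplus ribosomal proteins are degraded. Cells make these mRNAs in large amounts. Most of these mRNAs start with a cytosine followed by a tract of pyrimidines, the 5′ terminal oligopyrimidine (TOP) motif, through which the mTOR kinase and the RNA-binding protein LARP1 control their translation. Transcription of ribosomal protein genes is also promoted by MYC, and cancer cells that divide quickly devote much of their mRNA to them.

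Library totals ranged from 64571681 to 103518036 counts, and levels are given as CPM, counts scaled to a common library size after TMM adjustment. The mesenchymal markers of this cell line VIM, CD44, CAV1 and AXL lay between 754 and 1458 CPM in all samples, and ESR1, PGR and CDH1 were at or below 0.133 CPM, while GATA3, listed as low, lay between 11.9 and 16.4 CPM. Of markers of other cells, CD3E, DCN and PTPRC stayed at or below 0.176 CPM and COL1A1 lay between 4.23 and 6.89 CPM. TRPV4 had 40, 28 and 54 counts in SC-0.77cP, 64, 45 and 24 in SC-8cP and 7, 1 and 13 in shTRPV4-8cP, with a log2 fold change of −2.51 (SE 0.49, edgeR adjusted p = 0.00219) for shTRPV4-8cP against SC-8cP.

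RefSeq starts (GRCh38.p14) were found for 64 of the 81 genes, 79 starts in all, and 17 genes had no entry. A cytosine at the first transcribed base followed by at least 4 pyrimidines stood at a start of 46 of these 64 genes (71.9%), of 6.33% of 15333 protein-coding genes and of 9.09% of 66 genes for mitochondrial ribosomal proteins. The following windows hold the 10 bases before and the first 20 bases of the transcript on the coding strand, with the pyrimidine run in capitals where the first base is a cytosine. They show 4 of the genes with the largest falls below, RPLP2 with a like start and no fall, RPS26, which rose, and 2 pairs of a gene with its second copy. The choice does not show how starts and changes go together. Among genes not shown, RPS29, also among the largest falls, has a thymine as its first annotated base. RPS10 and RPL36A, which rose, have the run, and RPL17, which also rose, lacks it.
RPL34: cttttttcttCCTCTTCCggggacgttgtc
RPS3A: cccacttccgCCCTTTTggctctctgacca
RPL41: cttcgcctttCTCTCggccttagcgccatt
RPS9: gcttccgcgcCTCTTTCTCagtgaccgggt
RPLP2: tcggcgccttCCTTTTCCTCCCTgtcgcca
RPS26: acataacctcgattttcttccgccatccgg
RPS27: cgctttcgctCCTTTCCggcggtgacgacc
RPS27L: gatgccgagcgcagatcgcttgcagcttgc
RPL10: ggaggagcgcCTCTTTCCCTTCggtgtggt
RPL10L: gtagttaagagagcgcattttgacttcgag

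On the plus strand these windows are chr4:108620566-108620595 (RPL34), chr4:151099618-151099647 (RPS3A), chr12:56116623-56116652 (RPL41), chr19:54200848-54200877 (RPS9), chr11:809957-809986 (RPLP2), chr12:56041908-56041937 (RPS26), chr1:153990752-153990781 (RPS27) and chrX:154398367-154398396 (RPL10, 1 of its 3 annotated starts). On the minus strand they are chr15:63157458-63157487 (RPS27L) and chr14:46651762-46651791 (RPL10L). Both second copies lacked the pyrimidine run at the annotated start that RPS27 and RPL10 have. In RPS26 the first annotated base is no cytosine. A search of both strands of the 300 bases around each start found CCGGAAG, a core of ETS factor sites, at 34.2% of the 79 starts of ribosomal protein genes, 37.8% of 82 starts of mitochondrial ribosomal protein genes and 12.9% of 21598 starts of protein-coding genes. AAGATGGC, part of the YY1 motif, stood at 7.59%, 25.6% and 3.57% of these starts, GGGCGG, the GC box of SP1, at 55.7%, 61.0% and 56.8%, and TATAAA, the core of the TATA box, at 7.59%, 3.66% and 9.45%. These matches are descriptions of the letters in the window.

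Levels between genes were compared as mean CPM per kilobase of coding exons, over all 9 samples. RPL3L and RPL10L did not pass the filter on low counts. RPL3L, a copy of RPL3 known from heart and skeletal muscle, had 1 to 6 counts in a sample, and RPL10L, a copy of RPL10 known from testis, had 0 counts in all 9, where a count of 0 allows up to 3. The other 79 genes were tested. Their level had a median of 1529 CPM per coding kilobase, and 73 of the 79 exceeded 100 CPM. The highest was RPL41, the shortest of all with 75 coding bases, at 11784 CPM per coding kilobase. It was followed by RPS18, which sits at the head of the small subunit, at 5038, RPL39 of the peptide exit tunnel at 3154, RPL13A at 2886 and RPS27 at 2838 CPM per coding kilobase. Reads on untranslated exons count toward these values, which raises them most for the shortest coding sequences. In RPL41 75 of the 676 bases of the canonical transcript are coding, and in RPS18 456 of 549. The first place of RPL41 depends on the use of coding length. In the order of mean levels RPL13A and RPS27 were neighbours, and their CPM per coding kilobase differed by less than the spread between samples of 1 group.

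**Figure D1:**
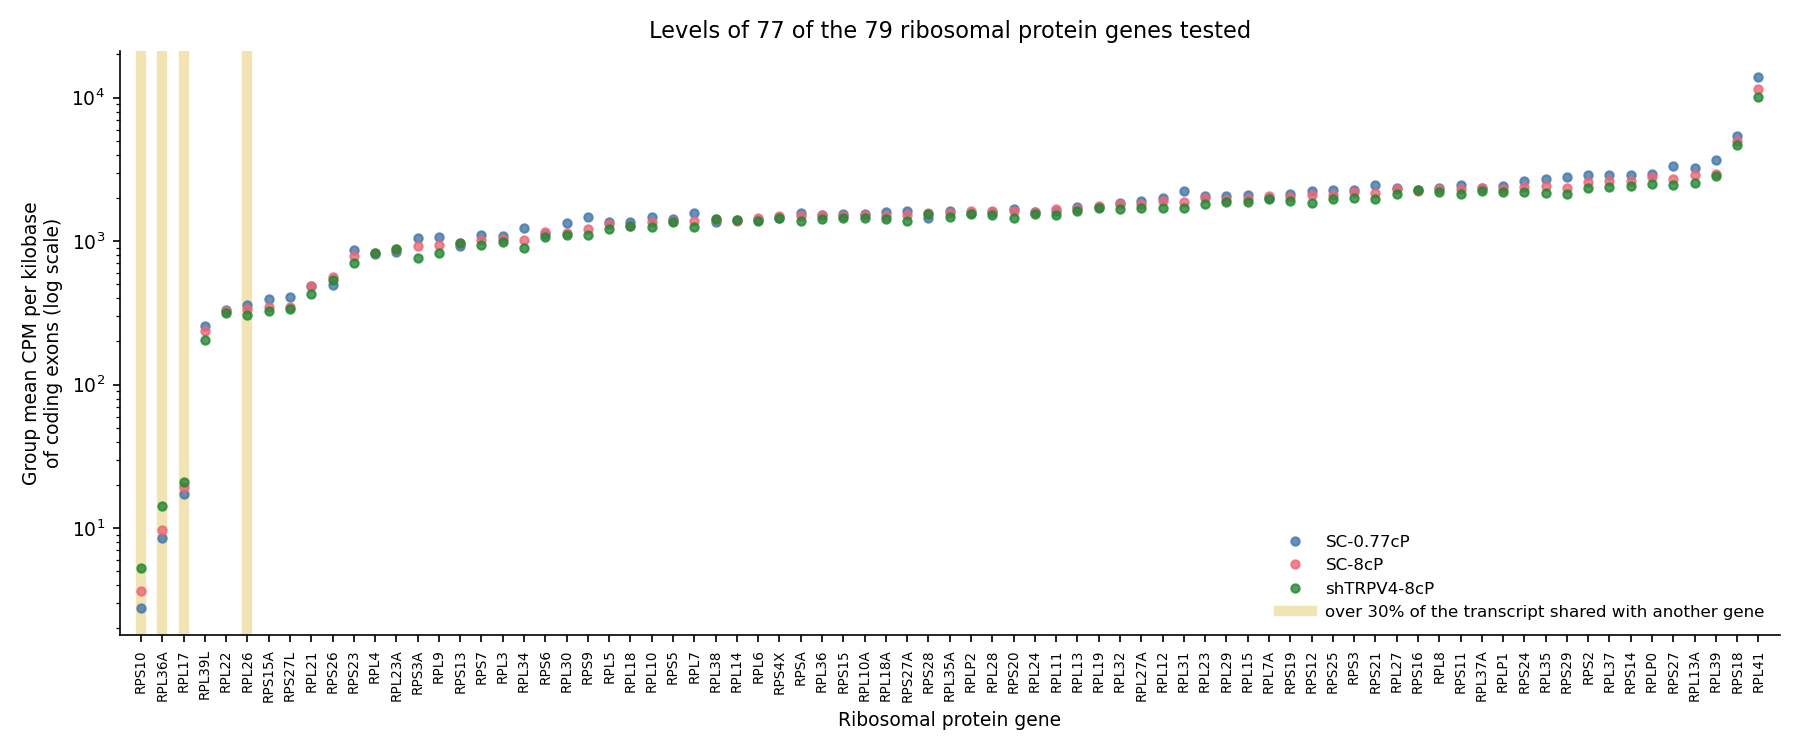
Group mean CPM per kilobase of coding exons (log scale) of 77 of the 79 ribosomal protein genes tested, ordered by the mean over all samples, with 1 point for each group. Most genes lie near the median of 1529, and RPL41, with 75 coding bases in a transcript of 676, stands highest at 11784 on this scale. Of the 4 shaded genes, which share over 30% of their transcript with another gene, 3 are the 3 lowest shown.

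Among the lowest genes tested were RPS10 at 3.89, RPL36A at 10.9 and RPL17 at 19.2 CPM per coding kilobase, and RPL39L, a copy of RPL39, was at 233. RPS10, RPL36A and RPL17 share 84.0%, 43.8% and 96.9% of the bases of their canonical transcript with other annotated genes on the same strand. These are RPS10-NUDT3, RPL36A-HNRNPH2 and RPL17-C18orf32, which are readthrough genes. All of these had 0 counts in all 9 samples. Reads on exons of more than 1 gene are left out by HTSeq in its usual modes, but the mode used is not given in the sources used here, and the counts of these 3 genes are uncertain as a measure of their mRNA. RPS10 had 98 to 238 counts in a sample. RPL26, with 65.3% shared, was at 333 CPM per coding kilobase. Reads that match a pseudogene as well as its parent are a further limit of the counts, since 1587 annotated pseudogenes carry the name of one of these genes, with 133 for RPL21 and a median of 13 per tested gene. Spearman's rho between the level per coding kilobase and the number of pseudogenes was −0.18 over the 79 genes, which share all libraries.

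The mean share of counts on ribosomal protein genes was lower in SC-8cP than in SC-0.77cP and lowest in shTRPV4-8cP, with overlap between neighbouring groups. The share was 6.76%, 6.64% and 6.43% of all counts in replicates 1 to 3 of SC-0.77cP, a mean of 6.61% ± 0.166 (SD, n = 3). In SC-8cP it was 6.11%, 6.47% and 6.20%, a mean of 6.26% ± 0.190 (SD, n = 3), and in shTRPV4-8cP it was 5.46%, 6.02% and 6.33%, a mean of 5.94% ± 0.441 (SD, n = 3). All shTRPV4-8cP samples lay below all SC-0.77cP samples, SC-8cP replicate 2 lay between replicates 2 and 3 of SC-0.77cP, and shTRPV4-8cP replicate 3 lay within the range of SC-8cP. Without shTRPV4-8cP replicate 1 the mean of shTRPV4-8cP minus that of SC-8cP was −0.0804 percentage points. Replicate 1 of shTRPV4-8cP stood apart, as it held the lowest CPM of the 9 samples for 69 of the 79 genes tested, and SC-0.77cP replicate 1 held the highest for 40. The coefficient of variation between replicates had a median over the 79 genes of 3.58% in SC-0.77cP, 3.61% in SC-8cP and 8.90% in shTRPV4-8cP, against 6.98%, 5.97% and 7.38% over all genes tested. The group means were ordered SC-0.77cP above SC-8cP above shTRPV4-8cP for 58 of the 79 genes (73.4%), and for 27.6% of all genes tested. In these bulk libraries, a change in some of the cells and a smaller change in every cell cannot be told apart, and CPM gives levels relative to the rest of the library, not per cell.

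**Figure D2:**
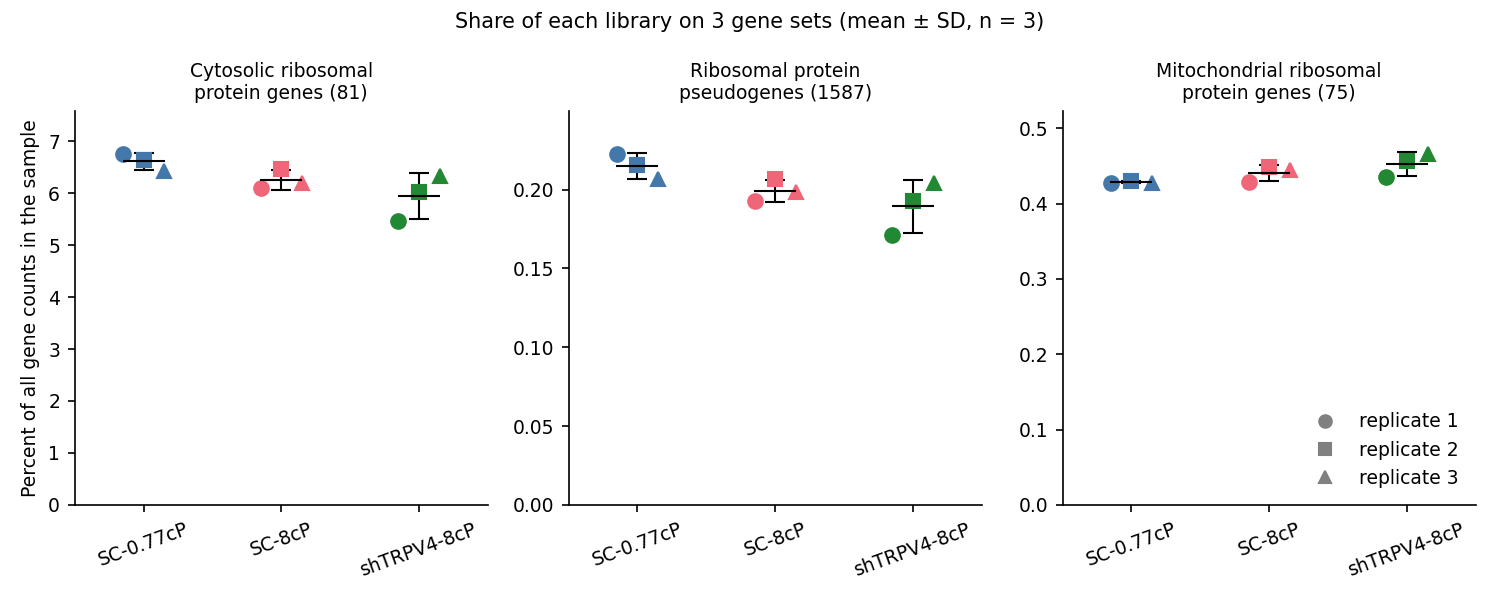
Percent of all gene counts of a sample on the 81 ribosomal protein genes, on the 1587 ribosomal protein pseudogenes and on 75 genes for mitochondrial ribosomal proteins, with 1 point per sample and black bars for the mean ± SD (n = 3). The first share falls from a mean of 6.61% to 6.26% and 5.94%, with shTRPV4-8cP replicate 1 lowest at 5.46%.

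The comparison of SC-8cP against SC-0.77cP asks how SC cells at raised viscosity differed on day 6. At 8 cP, 6 of the 79 genes were lower and 1 was higher at an adjusted p below 0.05 (edgeR's quasi-likelihood test, adjusted over 18264 genes). These are 7.59% and 1.27% of the genes, beside 9.69% of all genes tested that were lower and 9.57% that were higher. The 6 that fell were RPL39, RPS27, RPL34, RPL41, RPS9 and RPL31, with changes from −20.3% to −16.8%. The median log2 fold change was −0.07 over the 79 genes and −0.01 over all genes tested, and 60 of the 79 were below 0 against 51.1% of all genes. SC-8cP lay below SC-0.77cP with no overlap of samples for 28 of the 79 genes (35.4%), beside 19.0% of all genes tested.

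RPS9, a small subunit protein at the mRNA entry channel, was at 922, 843 and 803 CPM in SC-0.77cP and 694, 749 and 685 CPM in SC-8cP. The groups did not overlap, and its log2 fold change was −0.27 (SE 0.07, edgeR adjusted p = 0.0108). RPL39, which lines the peptide exit tunnel, was at 628, 552 and 515 CPM in SC-0.77cP and 449, 485 and 418 CPM in SC-8cP. The groups did not overlap, and it fell by 0.33 on the log2 scale (SE 0.10, edgeR adjusted p = 0.0289). RPS27, a zinc finger protein of the small subunit also called metallopanstimulin, was at 926, 801 and 788 CPM in SC-0.77cP and 647, 736 and 680 CPM in SC-8cP, a log2 fold change of −0.29 (SE 0.09, edgeR adjusted p = 0.0346). Its second copy RPS27L, a target of p53, had a log2 fold change of −0.23 (SE 0.08, edgeR adjusted p = 0.0513) and did not pass. RPS26, a small subunit protein that contacts the mRNA upstream of the start codon, moved the other way, from 163, 173 and 174 CPM in SC-0.77cP to 190, 198 and 197 CPM in SC-8cP. All 3 samples at 8 cP were above all 3 at 0.77 cP, and the log2 fold change was 0.20 (SE 0.04, edgeR adjusted p = 0.00758), a call that held in all 9 fits that left out 1 library.

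The count of lower genes in this comparison rested on single libraries. It was 0 without SC-0.77cP replicate 1 and 0 without SC-8cP replicate 3 in edgeR, where 5 and 9 genes were lower at an unadjusted p below 0.05, and no other tool was run on these subsets. It was 2 without SC-0.77cP replicate 2, 10 without SC-0.77cP replicate 3 and 1 without SC-8cP replicate 1, and it rose to 18 without shTRPV4-8cP replicate 1 and 12 without shTRPV4-8cP replicate 3. The number of all tested genes called in either direction moved as well. It was 3518 in the main fit, 1409 without SC-0.77cP replicate 1, 1418 without SC-8cP replicate 3 and 4349 without shTRPV4-8cP replicate 1. The shTRPV4-8cP samples are in neither group of this comparison, but they enter the filter on low counts, the scaling and the estimate of the spread. Over these fits the median log2 fold change of the 79 genes stayed between −0.08 and −0.05.

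The comparison of shTRPV4-8cP against SC-8cP asks what TRPV4 knockdown did at raised viscosity, and it shares the SC-8cP samples with the comparison above. In shTRPV4-8cP, 5 of the 79 genes were lower and 3 were higher, which is 6.33% and 3.80%, beside 11.0% of all genes tested that were lower and 9.02% that were higher. With scaling to the library total in place of TMM, 2 of the 79 were lower and 3 higher. Of all genes tested, 3709 were then called in either direction, against 3649 with TMM. The median log2 fold change was −0.10 over the 79 genes and 0.00 over all genes tested, and 72 of the 79 were below 0 against 49.9% of all genes. The samples did not overlap, with shTRPV4-8cP lower, for 13 of the 79 genes (16.5%), beside 18.8% of all genes tested.

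RPS3A, a small subunit protein near the mRNA exit, was at 695, 786 and 705 CPM in SC-8cP and 536, 627 and 655 CPM in shTRPV4-8cP. All shTRPV4-8cP samples were below all SC-8cP samples, and the log2 fold change was −0.27 (SE 0.07, edgeR adjusted p = 0.0182). RPL13A, which is also known as part of the GAIT complex that silences inflammatory mRNAs, fell by 0.19 on the log2 scale (SE 0.06, edgeR adjusted p = 0.0365), and so did RPL39L (SE 0.06, edgeR adjusted p = 0.0311). RPLP0, the base of the ribosomal P stalk that binds translation factors, was at 2627, 2716 and 2610 CPM in SC-8cP and 2252, 2393 and 2536 CPM in shTRPV4-8cP. Its log2 fold change of −0.15 (SE 0.05, edgeR adjusted p = 0.0450) held in 2 of the 9 fits that left out 1 library.

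Among the genes that rose were RPL36A and RPS10, both with shared exons and fewer than 10 CPM. RPL36A was at 3.003, 3.21 and 3.13 CPM in SC-8cP and 4.32, 4.73 and 4.61 CPM in shTRPV4-8cP, a log2 fold change of 0.55 (SE 0.10, edgeR adjusted p = 0.00099). For RPS10 the log2 fold change was 0.52 (SE 0.13, edgeR adjusted p = 0.0121). The part of the shared exons in these rises was not tested.

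Without SC-8cP replicate 2 the count of lower genes was 0 in edgeR, with 6 lower at an unadjusted p below 0.05, and the count of higher genes was 1. It was 1 lower without shTRPV4-8cP replicate 1, 2 without shTRPV4-8cP replicate 2, 3 without SC-8cP replicate 1 and 2 without SC-8cP replicate 3, and it rose to 25 without shTRPV4-8cP replicate 3. The number of all tested genes called in either direction was 3649 in the main fit and 2179 without SC-8cP replicate 2. It was 2965 without shTRPV4-8cP replicate 1 and 3306 without shTRPV4-8cP replicate 3. Leaving out shTRPV4-8cP replicate 1 took the median log2 fold change of the 79 genes to −0.03.

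**Figure D3:**
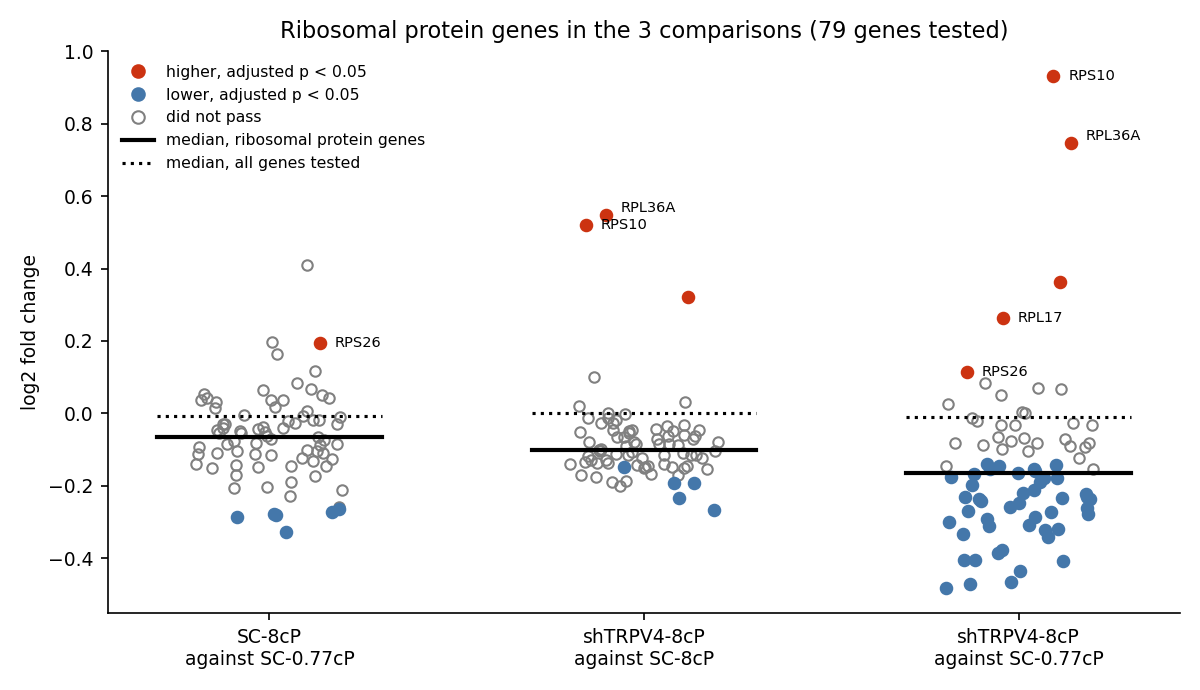
log2 fold changes of the 79 ribosomal protein genes tested in the 3 comparisons, with 1 point per gene, filled where the adjusted p was below 0.05 (edgeR), solid bars for the median of these genes and dotted bars for the median of all genes tested. The first 2 comparisons show 6 and 5 lower genes (7.59% and 6.33%, beside 9.69% and 11.0% of all genes tested). The third shows 46 (58.2%, beside 22.0%), and each of the 3 solid bars lies below its dotted bar. RPS10, RPL36A and RPL17, labelled in the third comparison, are genes with shared exons.

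Between shTRPV4-8cP and SC-0.77cP, which differ in both viscosity and hairpin, most ribosomal protein genes were lower in shTRPV4-8cP. Of the 79 genes 46 fell (58.2%) and 5 rose (6.33%), beside 22.0% of all genes tested that were lower and 20.4% that were higher. The changes of the 46 ran from −28.3% to −9.15%, with a median of −16.1%. The median log2 fold change was −0.17 over the 79 genes and −0.01 over all genes tested, and 67 of the 79 were below 0 against 51.4% of all genes. The samples did not overlap, with shTRPV4-8cP lower, for 40 of the 79 genes (50.6%), beside 26.1% of all genes tested. By subunit, 24 of 47 genes of the 60S subunit and 22 of 32 of the 40S subunit fell, with medians of −0.14 and −0.22.

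The largest fall was that of RPL34 (ENSG00000109475, chr4:108620569-108630412, plus strand), a large subunit protein. It was at 481, 417 and 412 CPM in SC-0.77cP, 342, 393 and 344 CPM in SC-8cP and 273, 328 and 338 CPM in shTRPV4-8cP. Each group lay below the one before with no overlap, and the log2 fold change of shTRPV4-8cP against SC-0.77cP was −0.48 (SE 0.08, edgeR adjusted p = 0.00018). RPS3A (ENSG00000145425, chr4:151099624-151104642, plus strand) was at 912, 818 and 788 CPM in SC-0.77cP and fell by 0.47 (SE 0.07, edgeR adjusted p = 0.000106) on the log2 scale. RPL41 (ENSG00000229117, chr12:56116590-56117967, plus strand), a short basic peptide of the large subunit, was at 1159, 1029 and 932 CPM in SC-0.77cP, 821, 922 and 830 CPM in SC-8cP and 655, 780 and 826 CPM in shTRPV4-8cP. Only the SC-8cP and shTRPV4-8cP samples of RPL41 overlapped, and its log2 fold change was −0.46 (SE 0.08, edgeR adjusted p = 0.000379). RPS27, RPS9 and RPS29, another zinc finger protein of the small subunit, fell by 0.43, 0.41 and 0.40 on the log2 scale.

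RPS10 (ENSG00000124614, chr6:34417454-34426069, minus strand), known for its ubiquitination when ribosomes collide, rose from 1.21, 1.53 and 1.37 CPM in SC-0.77cP to 2.48, 2.68 and 2.63 CPM in shTRPV4-8cP, a log2 fold change of 0.93 (SE 0.14, edgeR adjusted p = 6.95e-05). RPL36A rose by 0.75 and RPL17 by 0.26 on the log2 scale, both with the shared exons described above. RPS26 was at 181, 180 and 192 CPM in shTRPV4-8cP and was higher by 0.12 (SE 0.04, edgeR adjusted p = 0.0472), a call that held in 3 of the 9 fits that left out 1 library. RPS26 was thus the only gene outside those with shared exons that rose in any of the 3 comparisons.

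All 46 genes that fell kept a log2 fold change below 0 in each of the 9 fits that left out 1 library, and 26 of them kept an adjusted p below 0.05 in all 9. The count of lower genes ranged from 26 without SC-0.77cP replicate 1 to 54 without shTRPV4-8cP replicate 3. Of all genes tested, 7752 were called in either direction in the main fit, and 6318 and 7284 in these 2 fits. Without shTRPV4-8cP replicate 1, the sample with the lowest levels, 31 of the 79 ribosomal protein genes were lower and 5 higher, with a median log2 fold change of −0.11. Of all 18744 genes tested in that fit, 3590 were lower and 3256 higher. Leaving out shTRPV4-8cP replicate 3 or SC-0.77cP replicate 2 left 3 higher ribosomal protein genes.

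**Figure D4:**
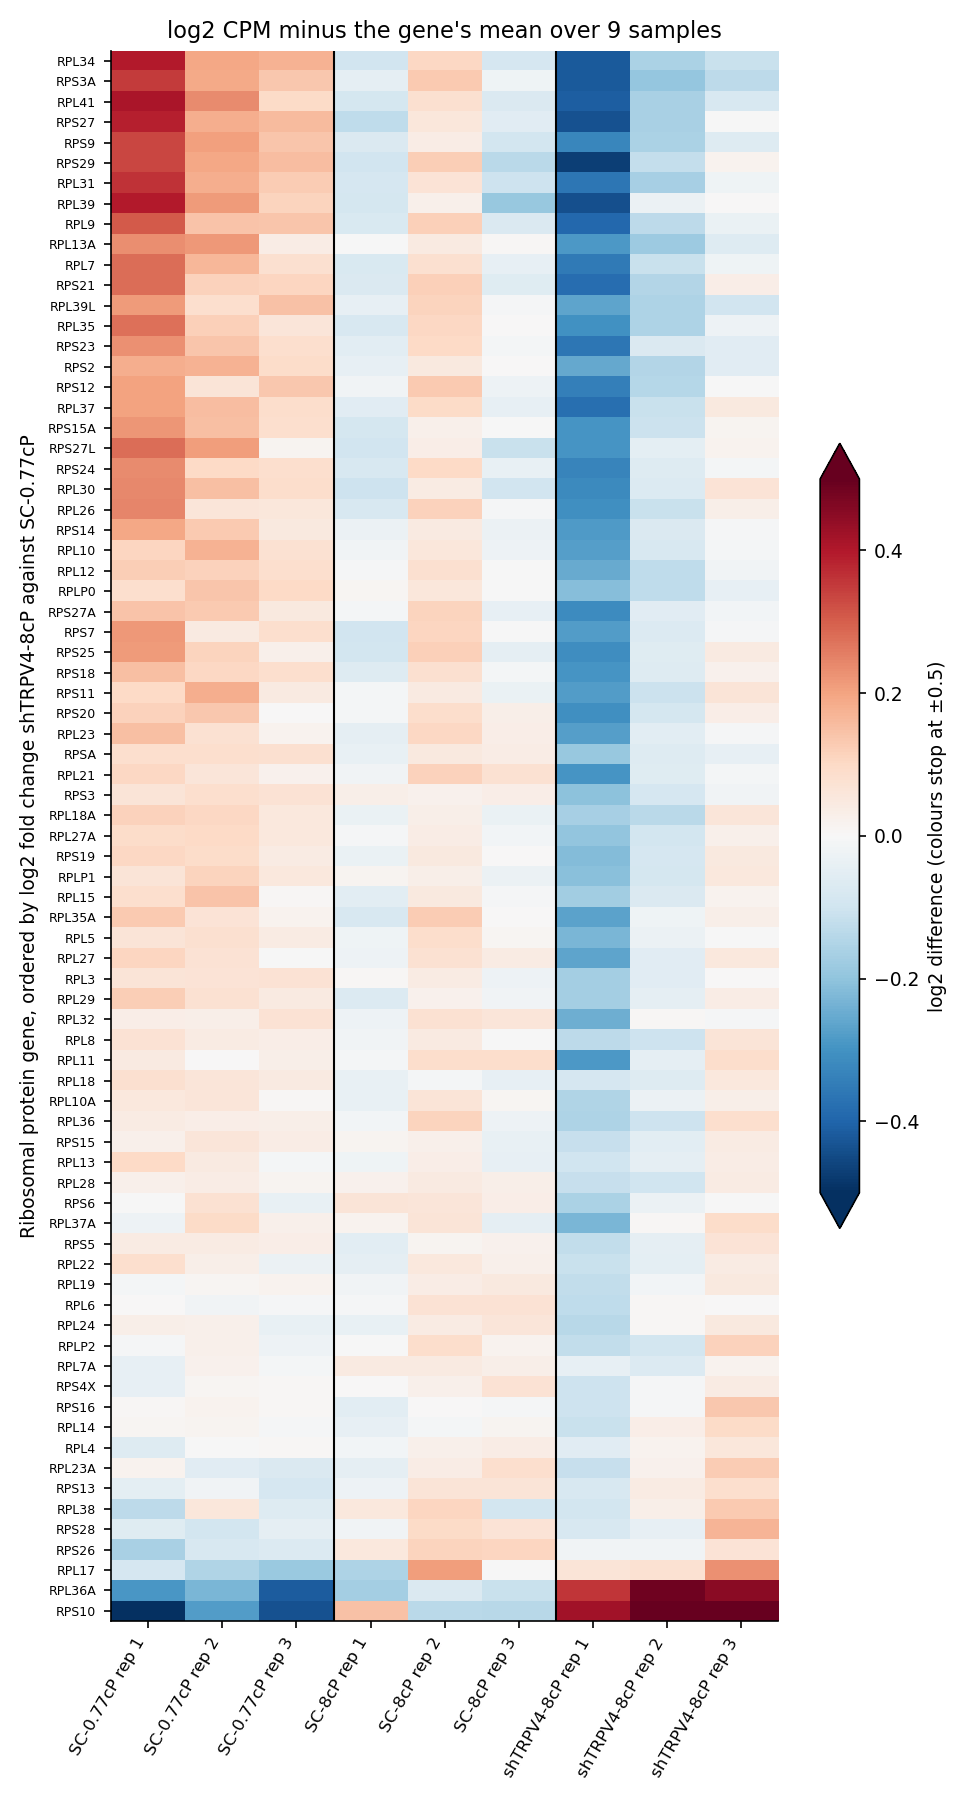
log2 CPM minus the mean of the gene over 9 samples for 77 of the 79 ribosomal protein genes (rows, ordered by log2 fold change of shTRPV4-8cP against SC-0.77cP) in the 9 samples (columns), with colours that stop at ±0.5. Of all 79 genes, replicate 1 of shTRPV4-8cP is lowest for 69 and replicate 1 of SC-0.77cP is highest for 40, and the 3 bottom rows are RPL17, RPL36A and RPS10.

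RPLP0 and RPLP1 were lower in shTRPV4-8cP than in SC-0.77cP, by 0.23 (SE 0.05, edgeR adjusted p = 0.00126) and 0.15 (SE 0.06, edgeR adjusted p = 0.0381) on the log2 scale. RPLP2 was at 540, 552 and 532 CPM in SC-0.77cP and 498, 509 and 588 CPM in shTRPV4-8cP, with a log2 fold change of −0.03 (SE 0.06, edgeR adjusted p = 0.742). RPL5 and RPL11, which bind 5S ribosomal RNA and, outside the ribosome, the p53 ligase MDM2, had log2 fold changes of −0.14 (SE 0.06, edgeR adjusted p = 0.0491) and −0.10 (SE 0.07, edgeR adjusted p = 0.282). The calls of RPL5 and RPLP1 held in 1 of the 9 fits that left out 1 library. RPS6, the small subunit protein that S6 kinase phosphorylates below mTOR, was at 835, 882 and 815 CPM in SC-0.77cP, 874, 871 and 854 CPM in SC-8cP and 748, 818 and 834 CPM in shTRPV4-8cP, and did not pass the test in any comparison. RPSA, also known as the laminin receptor precursor, was at 1391, 1389 and 1386 CPM in SC-0.77cP and 1150, 1254 and 1274 CPM in shTRPV4-8cP, a log2 fold change of −0.18 (SE 0.05, edgeR adjusted p = 0.00654). RPS4X, which has a Y-linked counterpart, had log2 fold changes between −0.05 and 0.04 in the 3 comparisons and passed in none.

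Of 5 genes of the peptide exit tunnel, RPL39 and RPL35 fell (40%) in shTRPV4-8cP against SC-0.77cP, RPL17 rose (20%) and RPL4 and RPL23A did not pass. Of all 79 genes 58.2% fell and 6.33% rose. RPL17 is a gene with shared exons, and its call held in 6 of the 9 fits that left out 1 library. Among second copies, RPL39L and RPS27L fell by 0.32 and 0.27 on the log2 scale, beside 0.39 and 0.43 for RPL39 and RPS27. RPL3 and RPL10, whose copies RPL3L and RPL10L were not tested, fell by 0.14 (SE 0.05, edgeR adjusted p = 0.026) and 0.24 (SE 0.06, edgeR adjusted p = 0.00426). The call of RPL3 held in 1 of the 9 fits that left out 1 library, and that of RPL10 in all 9. RPS27A, made as a fusion with ubiquitin, fell by 0.23 (SE 0.07, edgeR adjusted p = 0.0116). Of 19 genes mutated in Diamond-Blackfan anaemia, an inherited failure of red blood cell production, 11 fell (57.9%, beside 58.2% of all 79 genes) and 3 rose (15.8%) in this comparison, with a median log2 fold change of −0.15, and RPS10 and RPS26 were among those that rose. In SC-8cP against SC-0.77cP, 2 of the 19 fell (10.5%) and 1 rose (5.26%), near the 9.69% and 9.57% of all genes tested, and in shTRPV4-8cP against SC-8cP 0 fell and 2 rose (10.5%) by edgeR, beside 11.0% and 9.02% of all genes tested, with 1 lower at an unadjusted p below 0.05 and 0 lower by DESeq2.

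Of the 46 genes with such a start, 28 fell in shTRPV4-8cP against SC-0.77cP with a median log2 fold change of −0.18, and of 17 tested genes whose annotated starts lack it, 6 fell with a median of −0.09. The annotated start need not be the one used in these cells, and the difference was not tested. At 28 genes that hold an annotated small nucleolar RNA in their introns 20 fell, with a median of −0.18, and of the other 51 tested genes 26 fell, with a median of −0.15. In the same comparison 58.2% of all 79 genes and 22.0% of all genes tested were lower. The log2 fold changes of this comparison had a Spearman's rho of 0.17 with coding length over the 79 genes. Over 13658 tested genes with a coding sequence it was 0.08. With the GC content of the whole canonical transcript, rho was 0.16 over the 79 genes and −0.13 over the 13658. These values are descriptions over genes that share all libraries.

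Of 184 pseudogenes of the same families that were tested, 36 were lower and 3 higher in shTRPV4-8cP against SC-0.77cP (19.6% and 1.63%, beside the 22.0% and 20.4% of all genes), with a median log2 fold change of −0.19, and reads of a parent that map to its pseudogene cannot be told from the pseudogene's own. Short transcripts had a smaller shift, as 739 other protein-coding genes with a transcript under 1000 bases had a median of −0.08, with 30.2% lower and 12.4% higher. The mitochondrial ribosomal proteins build the separate ribosomes of mitochondria. Of 74 tested, 22 were higher and 5 lower (29.7% and 6.76%), with a median log2 fold change of 0.07. Their share of all counts was 0.428%, 0.430% and 0.428% in SC-0.77cP and 0.436%, 0.456% and 0.467% in shTRPV4-8cP. Transcripts of the mitochondrial genome took 2.58%, 2.10% and 2.04% of counts in SC-0.77cP, 2.44%, 2.23% and 2.41% in SC-8cP and 3.40%, 3.28% and 3.29% in shTRPV4-8cP. With these transcripts left out of the totals, the mean share of ribosomal protein genes in shTRPV4-8cP minus that in SC-0.77cP was −0.621 percentage points, against −0.673 with them, and minus that in SC-8cP it was −0.266 against −0.319.

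A list was made of 7 further genes, for ribosomal proteins or their relatives, that the naming rule leaves out, and it need not be complete. Among them are FAU, made as a fusion with a ubiquitin-like protein, RACK1, a scaffold on the small subunit, and the second copies RPL36AL, RPL22L1, RPL26L1 and RPL7L1. By edgeR 0 of them were lower in any comparison, at an adjusted or an unadjusted p below 0.05, likewise 0 by DESeq2, and their log2 fold changes in shTRPV4-8cP against SC-0.77cP lay between −0.10 and 0.28. RPL7L1, which acts in large subunit assembly, rose by 0.17 (SE 0.05, edgeR adjusted p = 0.0275) in SC-8cP against SC-0.77cP and by 0.28 (SE 0.05, edgeR adjusted p = 0.000353) in shTRPV4-8cP against SC-0.77cP. Other mRNAs with a TOP motif, mostly translation factors, were divided. Of 14 tested, 5 were lower and 2 higher in shTRPV4-8cP against SC-0.77cP (35.7% and 14.3%, beside 22.0% and 20.4% of all genes), with a median log2 fold change of −0.0030. The gene TPT1, which encodes the translationally controlled tumour protein, was at 722, 733 and 644 CPM in SC-0.77cP, 587, 638 and 557 CPM in SC-8cP and 426, 498 and 510 CPM in shTRPV4-8cP, with log2 fold changes of −0.24 (edgeR adjusted p = 0.0287) in SC-8cP against SC-0.77cP and −0.31 (edgeR adjusted p = 0.00533) in shTRPV4-8cP against SC-8cP. EEF2, the elongation factor of translocation, fell by 0.24 (SE 0.04, edgeR adjusted p = 0.000236) in shTRPV4-8cP against SC-0.77cP, and EIF4B, an initiation factor, by 0.21 (SE 0.04, edgeR adjusted p = 0.00095). EEF1G, also on this list, was listed at 0 in all 9 samples.

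Most of the listed genes that assemble ribosomes rose in shTRPV4-8cP against SC-0.77cP, where 20.4% of all genes tested were higher and 22.0% lower. Of 6 chaperones that carry single ribosomal proteins, 5 were higher in shTRPV4-8cP against SC-0.77cP and 0 lower by edgeR, DESeq2 or an unadjusted p below 0.05, with a median log2 fold change of 0.36. GRWD1, a chaperone of RPL3, was at 77.7, 83.1 and 91.2 CPM in SC-0.77cP, 93.0, 95.7 and 99.2 CPM in SC-8cP and 117, 103.7 and 111 CPM in shTRPV4-8cP. Its samples did not overlap between any 2 groups, and it rose by 0.40 (SE 0.06, edgeR adjusted p = 7.64e-05). PDCD2, a chaperone of RPS2, rose by 0.41 (SE 0.05, edgeR adjusted p = 1.48e-05), and TSR2, a chaperone of RPS26, had a log2 fold change of 0.03 (SE 0.04, edgeR adjusted p = 0.666). Of 16 nucleolar assembly factors, 12 were higher and 1 lower, with a median of 0.36. The largest rise among them was that of RRS1, needed for the 5S particle in large subunit assembly, which was at 13.8, 13.9 and 14.8 CPM in SC-0.77cP, 21.7, 21.5 and 23.8 CPM in SC-8cP and 34.7, 28.3 and 30.7 CPM in shTRPV4-8cP. RRS1 rose by 1.14 (SE 0.07, edgeR adjusted p = 2.28e-08). The gene that fell was NOC2L, also a regulator of p53, from 188, 180 and 197 CPM in SC-0.77cP and 199, 200 and 216 CPM in SC-8cP to 108, 99.3 and 104.1 CPM in shTRPV4-8cP, a log2 fold change of −0.98 (SE 0.05, edgeR adjusted p = 6e-09) against SC-8cP. In SC-8cP against SC-0.77cP, 3 of 6 chaperones and 7 of 16 assembly factors were higher, beside 9.57% of all genes tested. In shTRPV4-8cP against SC-8cP 3 and 10 were higher, beside 9.02% of all genes tested, and 1 assembly factor was lower. Without shTRPV4-8cP replicate 1, a choice made after the data were seen, 5 chaperones and 13 assembly factors were higher in shTRPV4-8cP against SC-0.77cP. In that fit 1 assembly factor was lower, and 3256 of all 18744 genes tested were higher and 3590 lower.

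**Figure D5:**
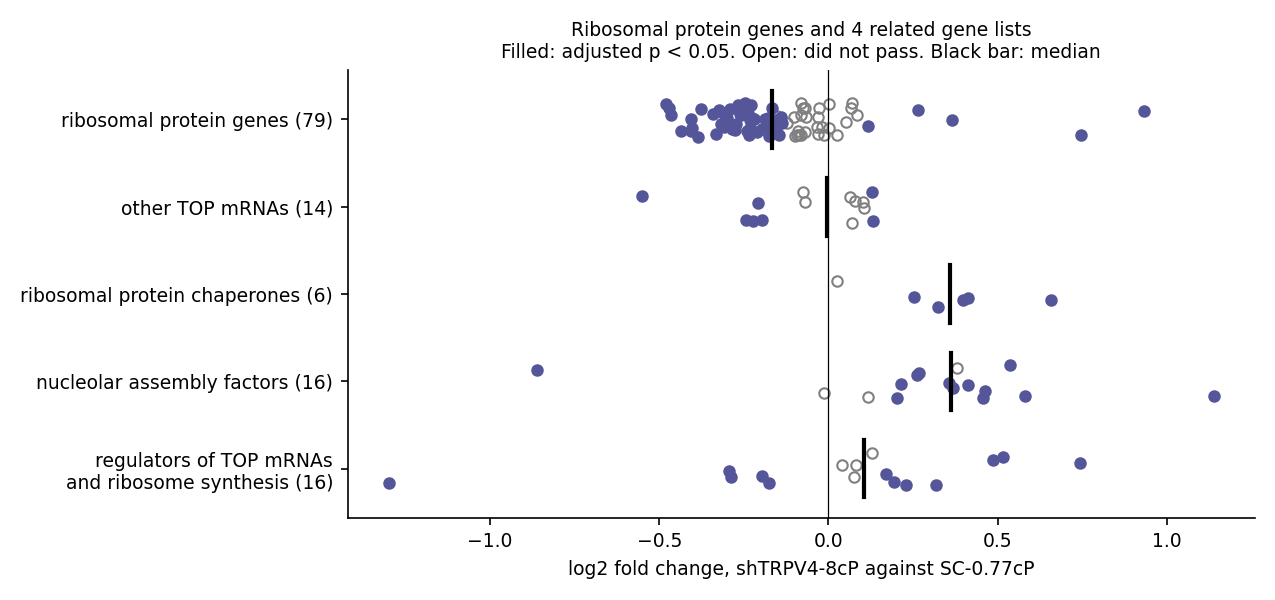
log2 fold changes of shTRPV4-8cP against SC-0.77cP for the 79 ribosomal protein genes and 4 related lists, with 1 point per gene, filled where the adjusted p was below 0.05 (edgeR), and black bars for medians. The median is −0.17 for ribosomal protein genes and 0.36 for both chaperones and nucleolar assembly factors, and the regulator farthest to the left is MYC.

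Among 16 regulators of TOP mRNAs and ribosome synthesis, 7 were higher and 5 lower in shTRPV4-8cP against SC-0.77cP (43.8% and 31.2%, beside 20.4% and 22.0% of all genes), with a median log2 fold change of 0.10. MYC was at 442, 433 and 427 CPM in SC-0.77cP, 195, 191 and 190 CPM in SC-8cP and 162, 175 and 192 CPM in shTRPV4-8cP. It fell by 1.18 (SE 0.05, edgeR adjusted p = 6.4e-10) in SC-8cP against SC-0.77cP, and had a log2 fold change of −0.12 (SE 0.05, edgeR adjusted p = 0.125) in shTRPV4-8cP against SC-8cP. POLR1B, a subunit of RNA polymerase I, rose by 0.74 (SE 0.07, edgeR adjusted p = 9.37e-07) and POLR1A, its largest subunit, by 0.48 (SE 0.07, edgeR adjusted p = 9.52e-05) in shTRPV4-8cP against SC-0.77cP. TSC1, an inhibitor of mTOR, fell by 0.29 (SE 0.05, edgeR adjusted p = 0.000191) in the same comparison, and MDM2 fell by 0.32 (SE 0.08, edgeR adjusted p = 0.00735) in shTRPV4-8cP against SC-8cP.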

How the data were processed

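RNA from 9 samples of MDA-MB-231 cells was sequenced by the authors as paired reads of stranded poly(A) libraries. Per the submitters' notes and the methods, reads were aligned with HISAT2 2.2.1 to GRCh38.p13, handled with SAMtools 1.1.3 and counted per Ensembl gene with HTSeq 0.13.5, and the strand and multimapping settings are not given in the sources used here. The deposited values are raw counts per gene, 1 file per sample. From these counts, genes passing filterByExpr (18264 of 60664) were fitted with edgeR 4.0.16 in R 4.3.3 (TMM scaling, quasi-likelihood test, 1 coefficient per group, all 9 samples), with Benjamini-Hochberg adjustment over all tested genes and a threshold of 0.05. The fit was tested on simulated counts in which genes varied independently with 1 fixed spread. That test did not cover genes that move together in a library. DESeq2 1.42.0, other scalings and filters, a replicate block and leaving out each library were alternatives.

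The ribosomal protein genes, the lists and the tests were chosen with earlier results of these data known. Genes are named by role, by the 6 largest rises and falls among calls in each comparison, by the 5 highest and 5 lowest levels, or for failing the filter, and list examples were chosen after their values were seen. Some genes that these rules name are not reported here. The rule for levels asked for exon length, which was read as coding exons, since long annotated untranslated regions inflate some transcripts.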

Additional observations from a re-analysis of the deposited data

How the results depend on the processing

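No value changed sign past the threshold under any alternative run. In SC-8cP against SC-0.77cP, the count of higher ribosomal protein genes was 2 with a minimum of 10 counts in every sample and 2 with DESeq2. Of all genes, 3574 and 4006 were called in either direction in these 2 fits, and 3518 in the main fit. The count of lower ribosomal protein genes was 19 with no filter on low counts and 17 when only the 6 samples compared were fitted. There, 3834 and 3845 of all genes were called in either direction. When each library was left out, 0 to 18 ribosomal protein genes were lower and 1 to 2 higher. In shTRPV4-8cP against SC-8cP, the count of lower ribosomal protein genes was 2 with scaling to the library total, 23 with no filter and 10 with DESeq2. Of all genes, 3709, 3902 and 3848 were called in either direction in these 3 fits, and 3649 in the main fit. When each library was left out, 0 to 25 ribosomal protein genes were lower and 1 to 3 higher. In shTRPV4-8cP against SC-0.77cP those ranges were 26 to 54 lower and 3 to 5 higher. The median log2 fold change ranged over these fits from −0.08 to −0.05, from −0.15 to −0.03 and from −0.22 to −0.11 in the 3 comparisons. The cause of these moves was not tested. Fits that left out a library or used only the 6 samples compared had fewer samples, and the others kept all samples. With the replicate number as a block, 5, 4 and 46 ribosomal protein genes were lower and 1, 3 and 5 higher. Of all genes tested, 3475, 3607 and 7731 were called in either direction with this block. The numbers were not taken as pairing, since samples with the same number had correlations of their deviations between −0.055 and 0.0904 and 2 of 9 samples correlated best with their own number. Fewer than 10 CPM limit the precision of RPS10 and RPL36A.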
